A study of Mus musculus with 6 samples.

Results

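The 10 circadian clock and output genes described here (Per1, Per2, Per3, Ciart, Nr1d1, Nr1d2, Dbp, Tef, Arntl and Clock) were chosen by name from 55421 genes counted in the cerebral cortex, and each was present and passed the filter on low counts. The libraries came from male wild-type C57BL/6J mice anesthetized with isoflurane, 3 mice of 6 months (mice 10, 11 and 17) and 3 mice of 24 months (mice 2, 4 and 5). Each library is the microdissected cortex of 1 mouse, prepared from total RNA with a low-input kit. Mice were kept under equal periods of light and dark, but the hour at which each was killed is not given in the sources used here. A difference in the level of a rhythmic transcript and a difference in the hour of sampling or in the phase of the clock therefore cannot be told apart.

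The circadian clock of mammalian cells is a feedback loop of transcription. The activators CLOCK and ARNTL (also called BMAL1) bind E-box sequences and switch on the period genes (Per1, Per2 and Per3), Ciart, the nuclear receptors Nr1d1 and Nr1d2 (REV-ERB alpha and beta) and output factors such as Dbp. PER proteins and CIART then inhibit the activators, and the REV-ERB receptors repress Arntl through ROR elements, so that Arntl peaks at another time of day than its targets. The loop runs in neurons and glia of the cortex and is set to the light cycle by the suprachiasmatic nucleus. The period genes also respond to neuronal activity and to glucocorticoids.

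Library totals were 33493082 to 36494240 counts at 6 months and 29495379 to 32813159 at 24 months. More genes had a count at 24 months (40208 to 43561) than at 6 months (33974 to 35651). Levels of 1 gene between mice are given as CPM (counts divided by the library total, scaled with edgeR's TMM factors), and levels between genes as TPM, which also corrects for transcript length. The TMM factors were 0.9207 to 0.9461 at 6 months and 1.037 to 1.1 at 24 months. These differences between libraries and age cannot be told apart. Differences are log2 fold changes of 24 against 6 months with their standard errors (SE), tested with edgeR's quasi-likelihood test over 32905 genes, and called at a false discovery rate (FDR) of 10%. The median log2 fold change of the 15761 genes of at least 1 CPM was -0.14 with TMM scaling and 0.05 with library totals alone, so changes are also given relative to the median of these genes. Of the genes called with TMM scaling 54.6% were higher at 24 months, against 92.7% with library totals. Among marker genes, neurons, astrocytes, oligodendrocytes and microglia were all represented, and no marker was at 0 in any mouse. The summed CPM of 6 neuronal markers lay at 7935.4 to 9275.1 at 6 months and 5854.8 to 7667.8 at 24 months, but with library totals the ranges overlapped (7464.4 to 8539.6 and 6441.4 to 7952.4). Snap25 (mean 4655.5 CPM) and Syt1 (1904.6 CPM) made up most of this sum. The log2 fold changes of the 6 markers ran from -0.40 to -0.06. In bulk tissue, fewer cells of a type and less RNA per cell cannot be told apart.

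Per2 and Per1 were lower in the old cortex, and the other 8 genes did not pass the test. Thus 2 of 10 genes were called lower and 0 higher, where 17.3% of the genes of at least 1 CPM were called lower and 2.43% higher (8.33% and 10.0% of all genes tested). The share of clock genes called lower was therefore near the background. The 10 log2 fold changes had a median of -0.38 and ran from -0.79 to 0.22, and 8 of them were negative. With TMM scaling only Per2, 1 of 10 genes, had all old mice below all young mice. In that direction 32.5% of the genes of at least 1 CPM (16.2% of all genes tested) were separated. None of the 10 had all old mice above all young mice, against 5.32% of the genes of at least 1 CPM and 20.0% of all genes tested. At 1% FDR, the threshold of the study, 0 of the 10 passed the quasi-likelihood test (0 of 32905 genes, 0.0%), 4 had an unadjusted p under 0.05 (background 31.1% of genes of at least 1 CPM, 30.7% of all), and Per2 alone was called by the likelihood ratio and exact tests of edgeR (background 1.55% and 1.18% of genes of at least 1 CPM called lower). DESeq2 called 0 at 1% FDR (background 0.723%). At 10% FDR the likelihood ratio, exact and DESeq2 tests each called Per1 and Per2 lower, and they called 13.6%, 12.2% and 10.8% of genes of at least 1 CPM lower. Library totals called Per2 alone, with a background of 1.99%, and the filterByExpr filter of edgeR called 0 members, with a background of 2.7%.

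**Figure D1:**
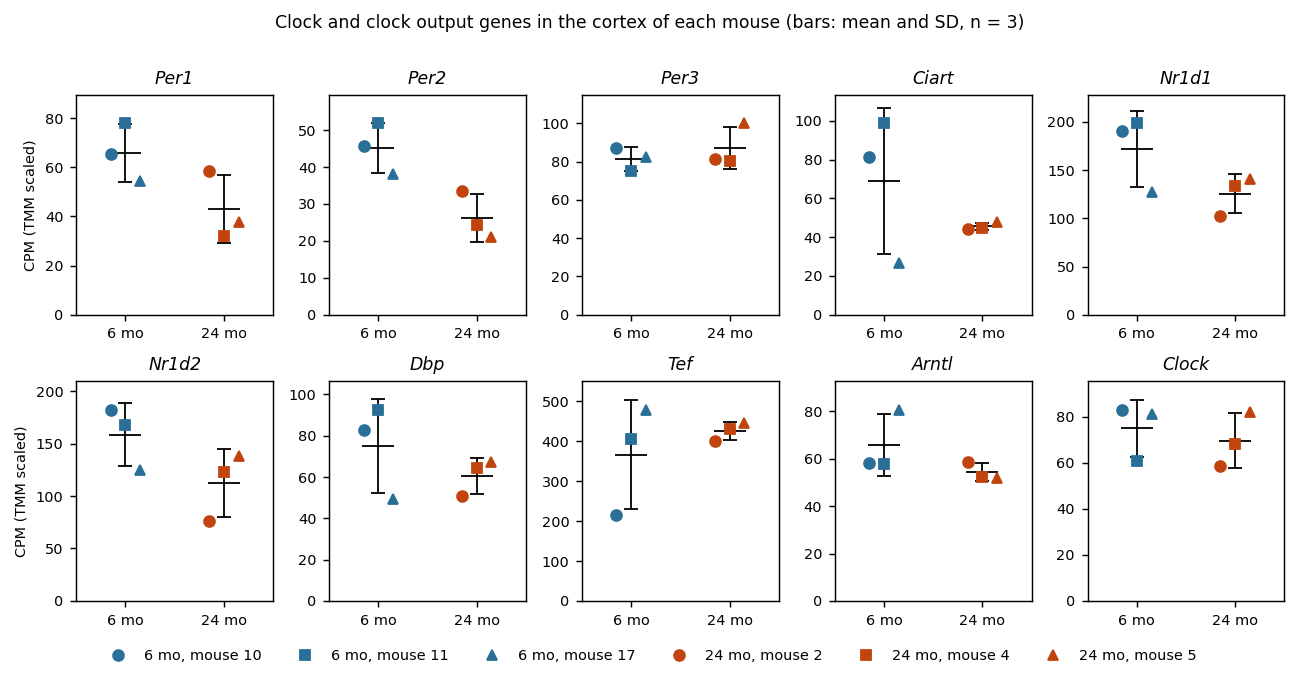
Levels of the 10 clock genes by mouse, in TMM-scaled CPM on axes that start at 0; symbols are single mice, and horizontal bars with whiskers are the mean and SD of 3 mice. Per2 is the gene whose ages do not overlap, and the young mouse 17 (blue triangle) is the lowest young mouse in Per1, Per2, Ciart, Nr1d1, Nr1d2 and Dbp.

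Compared per length, the output and REV-ERB transcripts were more abundant than the activators. At 6 months the order of mean TPM was Nr1d1 (196.7 ± 44.6, SD, n = 3), Tef (163.8 ± 61.7), Ciart (107.0 ± 58.8), Nr1d2 (103.0 ± 19.3), Dbp (88.2 ± 26.8), Per1 (41.2 ± 7.49), Arntl (30.7 ± 6.13), Per3 (29.8 ± 2.11), Per2 (27.1 ± 4.16) and Clock (19.2 ± 3.10). Of neighbours in this order, only Dbp and Per1, and Per2 and Clock, had ranges over mice that did not overlap. At 24 months the order of mean TPM began with Tef (205.8 ± 10.9) and Nr1d1 (155.3 TPM, range 126.9 to 174.0) and ended with Clock (19.3 ± 3.25) and Per2 (17.0 ± 4.22). Per2 had thus moved from above Clock to below it, although the ranges of the pair overlapped at 24 months.

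The period genes encode the repressors that give the loop its delay. Per2 (ENSMUSG00000055866.9, chromosome 1 from 91415982 to 91459324, GRCm38, minus strand) had 45.6, 51.8 and 38.2 CPM in the young mice 10, 11 and 17, and 33.4, 24.2 and 21.0 CPM in the old mice 2, 4 and 5. With TMM scaling every old mouse was below every young mouse. With library totals alone the ages overlapped, as the old mouse 2 (1085 counts of 29495379) lay above the young mouse 17 (1250 of 34821220). Per2 had a log2 fold change of -0.79 (SE 0.18, adjusted p = 0.0527 in the quasi-likelihood test), which is -0.64 relative to the median of expressed genes and -0.59 with library totals (adjusted p = 0.0909). Taken as a single gene, 3 against 3 mice gave an exact two-sided permutation p = 0.1, the smallest this design allows. The Per2 call was lost without the young mouse 10 (adjusted p = 0.150), the young mouse 11 (0.159) or the old mouse 4 (0.188), in fits that called 0, 1 and 0 genes of the whole table, and under 2 stricter filters on low counts (0.109 and 0.197). It was also lost with limma on log2(TPM + 1), where the adjusted p was 0.197 for Per2 and 0.299 for Per1. Its log2 fold change stayed between -0.99 and -0.59 over all alternatives.

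Per1 (ENSMUSG00000020893.17, chromosome 11 from 69095217 to 69109960, plus strand) encodes a period protein and is known to respond rapidly to external signals. It had 65.4, 77.8 and 54.3 CPM in the young mice 10, 11 and 17, and 58.6, 32.2 and 37.8 CPM in the old mice 2, 4 and 5. The old mouse 2 lay above the young mouse 17, so the ages overlapped, and 8 of 9 pairs of an old and a young mouse had the old one lower. Per1 had a log2 fold change of -0.62 (SE 0.21, adjusted p = 0.0914, quasi-likelihood test), -0.48 relative to expressed genes and -0.42 with library totals (adjusted p = 0.231). Leaving out the young mouse 10, 11 or 17 gave adjusted p-values of 0.186, 0.286 and 0.102, and leaving out the old mouse 4 or 5 gave 0.319 and 0.160. The fits without mouse 10, 11 or 4 called 0, 1 and 0 genes of the whole table, so these losses were not particular to Per1. Those without mouse 17 or 5 called 2476 and 7997 genes, but not Per1. Its log2 fold change lay between -0.90 and -0.41. One of the 2 Per1 starts in RefSeq (GRCm38.p6) has the E-box CACGTG (in capitals) 166 bases upstream, at chr11:69098771-69098800 on the plus strand:
Per1: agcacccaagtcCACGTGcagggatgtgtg

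Immediate early genes, which neurons switch on within minutes of activity, differed widely between the same mice. Their summed CPM over 12 genes was 3223.5, 3758.8 and 1843.2 in the young mice 10, 11 and 17, and 3899.4, 897.7 and 728.3 in the old mice 2, 4 and 5. Both this sum and Per1 were thus highest at 24 months in mouse 2 and lowest at 6 months in mouse 17. None of the 12 genes was called by the quasi-likelihood test at 10% FDR (1 had an unadjusted p under 0.05, and the likelihood ratio and exact tests called 1 each and DESeq2 0). The smallest adjusted p-values were those of Egr1 (log2 fold change -1.0, SE 0.38, adjusted p = 0.117), Arc (-0.84, SE 0.64, adjusted p = 0.394) and Fos (-0.83, SE 0.64, adjusted p = 0.397), all by the quasi-likelihood test. Their part in the level of Per1 was not tested.

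Per1 is also a known target of the glucocorticoid receptor. A list of genes induced by glucocorticoids had 3 of 10 members called lower and 0 higher, against the same backgrounds of 17.3% and 2.43%. These were Errfi1, a feedback inhibitor of EGF receptor signaling (log2 fold change -0.60, SE 0.12, adjusted p = 0.0518), Tsc22d3, also known as GILZ (-0.51, SE 0.13, adjusted p = 0.0567), and the kinase Sgk1 (-0.78, SE 0.21, adjusted p = 0.0617), each by the quasi-likelihood test. Of the 10 log2 fold changes 8 were negative, and their median was -0.19. Plin4, at a mean of 0.892 CPM, had the largest absolute change and was higher (0.95, SE 0.35, adjusted p = 0.111, same test). Fkbp5 was also fitted higher (0.30, SE 0.31, adjusted p = 0.527, same test). The summed CPM of the list was 663.5 to 820.2 at 6 months and 561.2 to 589.8 at 24 months, and with library totals the ranges overlapped (624.1 to 776.0 and 600.2 to 629.9). Their part in the levels of the period genes was not tested.

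Per3 (ENSMUSG00000028957.12, chromosome 4 from 151003652 to 151044665, minus strand), the period gene that the core loop needs least, was the most even of the 10 genes. It had 87.3, 74.9 and 82.2 CPM in the young mice and 81.3, 80.1 and 99.9 CPM in the old mice. Its log2 fold change was 0.10 (SE 0.11, adjusted p = 0.584, quasi-likelihood test), 0.24 relative to expressed genes and 0.29 with library totals (adjusted p = 0.114, same test). The sign turned to -0.01 without the old mouse 5. The pooled SD of log2 CPM within ages was 0.15 for Per3, close to the 0.164 of the median expressed gene. The RefSeq start of Per3 has 2 matches of TTANNTAA, the sequence used here for the D-box that DBP and TEF bind, within 250 bases before to 50 after it, and 6.00% of 32851 RefSeq promoter windows of that length have at least 1 match.

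Ciart (ENSMUSG00000038550.10, chromosome 3 from 95878503 to 95882251, minus strand), also known as Chrono, encodes a repressor of CLOCK and ARNTL, and it varied most between mice. It had 81.2, 98.6 and 26.5 CPM in the young mice 10, 11 and 17, and 44.3, 44.6 and 47.7 CPM in the old mice 2, 4 and 5. The old mice lay close together between the young mouse 17 and the other two. The pooled within-age SD of log2 CPM was 0.72, larger than that of 98.5% of the genes of at least 1 CPM. The log2 fold change of -0.59 (SE 0.36, adjusted p = 0.280, quasi-likelihood test) was within the spread between mice. It was -0.98 without the young mouse 17 (adjusted p = 0.0611), and -0.22 without the young mouse 11, so the young mouse 17 decided whether Ciart was called.

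The 250 bases upstream of the RefSeq start of Ciart (GRCm38.p6, chr3:95882229-95882478, minus strand) are printed because they have 3 copies of the E-box CACGTG, shown in capitals, at 116, 58 and 44 bases before the start:
Ciart: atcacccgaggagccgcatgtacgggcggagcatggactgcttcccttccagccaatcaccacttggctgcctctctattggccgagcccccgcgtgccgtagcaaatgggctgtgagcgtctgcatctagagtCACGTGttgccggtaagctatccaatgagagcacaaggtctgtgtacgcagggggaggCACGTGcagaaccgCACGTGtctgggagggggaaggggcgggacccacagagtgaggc
CACGTG reads the same on both strands. Of 32851 RefSeq promoter windows 7.15% have at least 1 copy and 0.0883% have 3 or more. In the table of promoters 9 of the 10 genes were found, with 14 windows, and 3 of these genes (Ciart, Per1 and Tef) have the E-box in a window. Per2 was the gene without a window, so it was searched for none of the motifs. The window of Nr1d1 was counted, although the bases after its RefSeq start were not found in its GENCODE transcripts. The cyclic AMP response element TGACGTCA was in 0 of the 14 windows, which do not cover Per2, and in 1.79% of all windows.

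The REV-ERB receptors Nr1d1 and Nr1d2 are repressors of Arntl. Nr1d1 (ENSMUSG00000020889.11, chromosome 11 from 98767932 to 98775333, minus strand) had 190.3, 198.4 and 127.2 CPM in the young mice 10, 11 and 17, and 102.5, 133.3 and 140.7 CPM in the old mice 2, 4 and 5. The young mouse 17 lay among the old mice. For Nr1d1 the log2 fold change was -0.45 (SE 0.17, adjusted p = 0.118, quasi-likelihood test), -0.31 relative to expressed genes, and 7 of 9 pairs of mice had the old one lower. Without the young mouse 17 it was -0.63 (adjusted p = 0.0921) and without the old mouse 5 it was -0.54 (adjusted p = 0.0941), both past 10% FDR. It was -0.31 without the young mouse 11 (adjusted p = 0.388), -0.32 without the old mouse 2 (adjusted p = 0.293) and -0.27 with library totals (adjusted p = 0.309).

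Nr1d2 (ENSMUSG00000021775.11, chromosome 14 from 18204054 to 18239127, minus strand) had 182.2, 168.1 and 124.7 CPM in the young mice 10, 11 and 17, and 75.8, 122.5 and 138.3 CPM in the old mice 2, 4 and 5. Its lowest level was in the old mouse 2, as for Nr1d1. For Nr1d2 it was -0.50 (SE 0.21, adjusted p = 0.144, quasi-likelihood test), and -0.67 without the old mouse 5 (adjusted p = 0.0715). It was -0.27 without the old mouse 2 (adjusted p = 0.309) and -0.31 with library totals (adjusted p = 0.315). The same old mouse 2 had the lowest sum of 5 oligodendrocyte markers, 1171.2 CPM, where the other 5 mice had 2220.8 to 3802.3 CPM. At 10% FDR 0 of these 5 markers was called by the quasi-likelihood, likelihood ratio, exact or DESeq2 test (0 with an unadjusted p under 0.05). With TMM scaling, mouse 2 also had the lowest summed CPM of the markers of neurons (5854.8), astrocytes (1659.9), microglia (259.8) and endothelial cells (78.8). The same held for red blood cells (46.3) and meninges (17.8), but not for choroid plexus (39.4). For astrocytes and microglia this place depended on the scaling. With library totals every old mouse was above every young mouse in the astrocyte sum (1773.4 to 1837.7 against 1609.0 to 1721.7). The microglial sum was likewise 285.8 to 309.1 at 24 months against 260.5 to 278.1 at 6 months. The part of cell composition in the REV-ERB levels was not tested. Exons of Nr1d1 overlap those of Thra, a thyroid hormone receptor gene on the other strand, over 263 bases (8.55% of the exonic bases of Nr1d1). Thra had 231.9, 267.5 and 371.5 CPM at 6 months and 384.3, 337.9 and 255.6 CPM at 24 months (log2 fold change 0.17, SE 0.19, adjusted p = 0.565, quasi-likelihood test). The libraries were not stated to keep strand, so reads of the shared bases cannot be told apart.

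**Figure D2:**
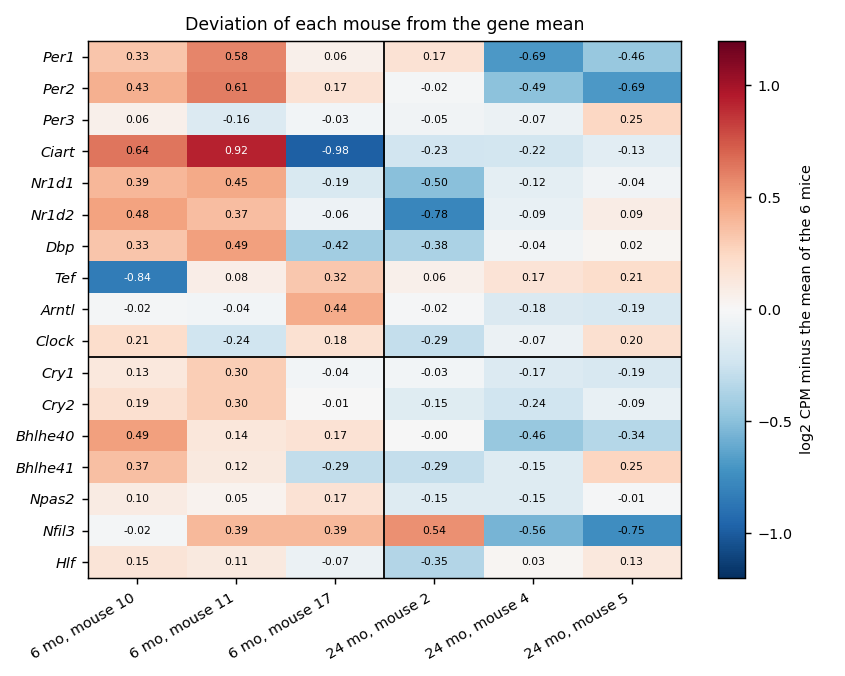
Deviation of each mouse from the mean log2 CPM of the 6 mice, for the 10 clock genes above the line and 7 other clock genes below it, with red for higher and blue for lower. In the young mouse 17 Ciart is at -0.98 and Arntl at 0.44, whereas in the young mouse 11 Ciart is at 0.92 and Arntl at -0.04.

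Dbp and Tef encode related PAR bZIP factors that carry the rhythm to genes with D-boxes. Dbp (ENSMUSG00000059824.12, chromosome 7 from 45705088 to 45710203, plus strand) had 83.0, 92.6 and 49.4 CPM in the young mice 10, 11 and 17, and 50.7, 64.2 and 67.1 CPM in the old mice 2, 4 and 5. The young mouse 17 had the lowest level of all. The log2 fold change was -0.30 (SE 0.21, adjusted p = 0.337, quasi-likelihood test), -0.16 relative to expressed genes and -0.12 with library totals. Without the young mouse 17 it was -0.53 (adjusted p = 0.0945), and without the young mouse 11 it was -0.09. Exons of Dbp overlap those of Sphk2 on the other strand over 539 bases (18.01% of the exonic bases of Dbp). Sphk2, a sphingosine kinase gene, had 21.0, 22.8 and 28.8 CPM at 6 months and 21.2, 21.1 and 18.7 CPM at 24 months, and unlike Dbp it was highest in the young mouse 17.

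Tef (ENSMUSG00000022389.15, chromosome 15 from 81802421 to 81826863, plus strand) had 214.0, 404.7 and 478.7 CPM in the young mice 10, 11 and 17, and 400.2, 430.8 and 444.7 CPM in the old mice 2, 4 and 5. The young mouse 10 was far below the other 5 mice, which lay close together. The log2 fold change of 0.22 (SE 0.23, adjusted p = 0.545, quasi-likelihood test) became -0.05 without the young mouse 10. Tef did not share the order of mice with Dbp. Both RefSeq starts of Tef (GRCm38.p6, plus strand) have 1 E-box, in capitals, at 127 and 138 bases upstream, at chr15:81802534-81802563 and chr15:81811264-81811293:
Tef start 1: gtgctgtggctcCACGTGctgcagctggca
Tef start 2: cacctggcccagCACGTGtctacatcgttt

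Arntl and Clock encode the activators of the loop. Arntl (ENSMUSG00000055116.8, chromosome 7 from 113207465 to 113314126, plus strand) had 58.3, 57.8 and 80.6 CPM in the young mice 10, 11 and 17, and 58.5, 52.4 and 51.9 CPM in the old mice 2, 4 and 5. The young mouse 17 was the highest, opposite to its place in Dbp and Ciart, and the other 5 mice lay close together. The log2 fold change was -0.27 (SE 0.14, adjusted p = 0.204, quasi-likelihood test), -0.13 relative to expressed genes and -0.10 without the young mouse 17. One of 2 RefSeq starts of Arntl (GRCm38.p6) has the ROR element core TAGGTCA, in capitals, 30 bases after the start, at chr7:113207530-113207558 on the plus strand, and 2.61% of all promoter windows have this core on either strand:
Arntl: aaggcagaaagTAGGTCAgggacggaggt
Clock (ENSMUSG00000029238.11, chromosome 5 from 76209868 to 76304792, minus strand), whose transcript is known to cycle little, had 83.1, 60.7 and 81.3 CPM in the young mice and 58.7, 68.4 and 82.1 CPM in the old mice. Its log2 fold change of -0.11 (SE 0.15, adjusted p = 0.659, quasi-likelihood test) turned to 0.08 with library totals, so no direction could be given.

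The ratio of counts of 2 genes in the same library is free of the scaling, and it was used to set the targets of the loop against Arntl. The count ratio of Dbp to Arntl was 1.42, 1.60 and 0.613 in the young mice 10, 11 and 17, and 0.867, 1.22 and 1.29 in the old mice 2, 4 and 5. The ratio of Ciart to Arntl was 1.39, 1.71 and 0.328 in the young mice and 0.758, 0.851 and 0.918 in the old mice. In both, the old mice lay between the young mouse 17 and the other young mice. The ratio of Nr1d1 to Arntl was 3.26, 3.43 and 1.58 against 1.75, 2.54 and 2.71, with the same order at 6 months. For Per2 the ratio to Arntl was 0.781, 0.896 and 0.473 in the young mice and 0.572, 0.461 and 0.404 in the old mice. The separation of the ages seen in Per2 alone with TMM scaling was thus not seen relative to Arntl. The ratio of Per1 to Arntl was 1.12, 1.35 and 0.673 against 1.00, 0.614 and 0.729, and the ages overlapped as well. These ratios were described with no test, and those of Ciart and Nr1d2 were added after the data were seen.

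**Figure D3:**
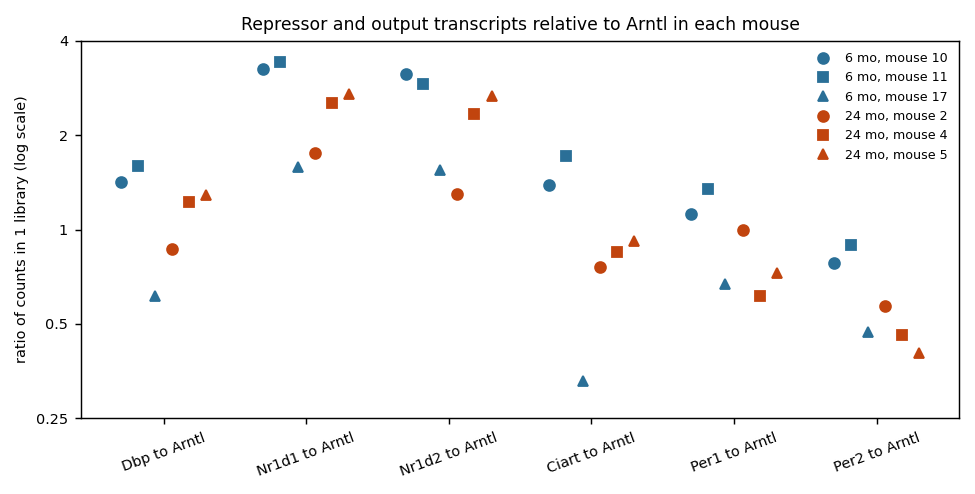
Ratio of the counts of 6 clock genes to those of Arntl in each library, on a log2 axis; each symbol is 1 mouse. In the young mouse 17 (blue triangle) all 6 ratios are below those of the young mice 10 and 11, and the ratio of Ciart to Arntl is 0.328 against 1.39 and 1.71.

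The spread between mice of one age was large for several of these genes. The pooled within-age SD of log2 CPM was 0.72 for Ciart, 0.44 for Tef, 0.38 for Dbp and Nr1d2, 0.37 for Per1, 0.30 for Nr1d1, 0.29 for Per2, 0.25 for Clock and 0.20 for Arntl, against a median of 0.164 for genes of at least 1 CPM. For 9 of the 10 genes it exceeded that median. Genes whose pattern over the 6 mice was most like that of Dbp were found by the root mean square difference of centered log2 CPM over 15760 other genes. The nearest were Mypn (0.0899), Gm13716 (0.0902), Vash2 (0.0950), Piga (0.101) and Zfp59 (0.117), and Nr1d1 was the next, at rank 6 (0.118). Nr1d2 had rank 672 and Ciart rank 7039. The genes nearest to Arntl were Tdrp (0.0462), M5C1000I18Rik (0.0571), Glt8d1 (0.0574), Sox4 (0.0639) and Zfp580 (0.0656), and the member nearest to it was Clock, at rank 8139 (0.258). With 6 libraries such likeness is a description only.

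In the rest of the clock pathway, 3 of 20 listed genes were called lower and 0 higher at 24 months, against the 17.3% and 2.43% of expressed genes called in these directions. Their median log2 fold change was -0.17, close to the -0.14 of expressed genes. Bhlhe40 (DEC1), a repressor that competes for E-boxes, had 363.2, 284.5 and 292.1 CPM in the young mice and 258.5, 188.5 and 204.0 CPM in the old mice. Its ages did not overlap with TMM scaling (log2 fold change -0.53, SE 0.14, adjusted p = 0.0602, quasi-likelihood test). With library totals the log2 fold change was -0.33 and the ages overlapped. There the old mouse 2 (8387 counts of 29495379) lay above the young mice 11 (9824 of 36494240) and 17 (9569 of 34821220). Cry2, a cryptochrome that represses CLOCK and ARNTL together with PER proteins, had 237.2, 255.9 and 207.2 CPM in the young mice and 188.1, 176.0 and 195.5 CPM in the old mice (log2 fold change -0.32, SE 0.10, adjusted p = 0.0776, same test). Btrc, which encodes the F-box protein that marks phosphorylated PER for degradation, fell from 142.4 ± 7.90 to 111.3 ± 2.92 CPM (SD, n = 3; log2 fold change -0.35, SE 0.09, adjusted p = 0.0558, same test). Relative to expressed genes these changes were -0.39 for Bhlhe40, -0.18 for Cry2 and -0.21 for Btrc, and 0 of the 20 genes was called with library totals.

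**Figure D4:**
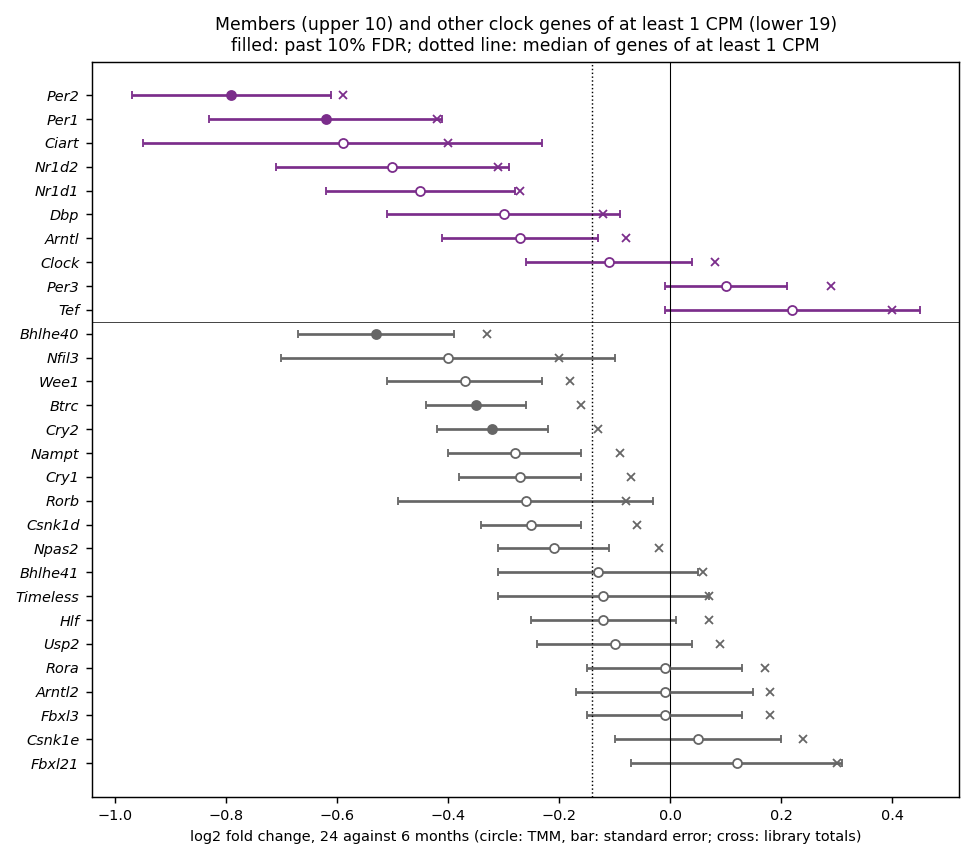
Log2 fold change of 24 against 6 months for the 10 clock genes (upper, purple) and 19 other clock genes of at least 1 CPM (lower, grey), with TMM scaling (circles, with the standard error) and with library totals (crosses). Filled circles passed 10% FDR, and the dotted line at -0.14 is the median of genes of at least 1 CPM.

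Of the other genes of that list with a large fold change, Nfil3, which represses at D-boxes, had 11.9, 15.8 and 15.8 CPM in the young mice and 17.6, 8.21 and 7.20 CPM in the old mice 2, 4 and 5. Its log2 fold change of -0.40 (SE 0.30, adjusted p = 0.377, quasi-likelihood test) was within the spread between mice, and the old mouse 2 was the highest, as it was for the summed immediate early genes. Wee1, a clock-controlled kinase of the cell cycle, had a log2 fold change of -0.37 (SE 0.14, adjusted p = 0.107, same test), with 48.2, 42.9 and 48.1 CPM against 29.8, 34.9 and 42.9 CPM. Cry1, the other cryptochrome, had 36.0, 40.4 and 32.1 CPM against 32.2, 29.3 and 28.9 CPM (log2 fold change -0.27, SE 0.11, adjusted p = 0.149, same test). Npas2, which can replace CLOCK, had 43.5, 41.9 and 45.8 CPM against 36.5, 36.5 and 40.3 CPM. With TMM scaling all old mice were below all young mice in Npas2. Still, its log2 fold change was -0.21 (SE 0.10, adjusted p = 0.167, same test) and -0.02 with library totals. In the list as a whole, 7 genes were separated by TMM-scaled CPM with the old mice lower, where 32.5% of expressed genes (16.2% of all genes tested) were.

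**Figure D5:**
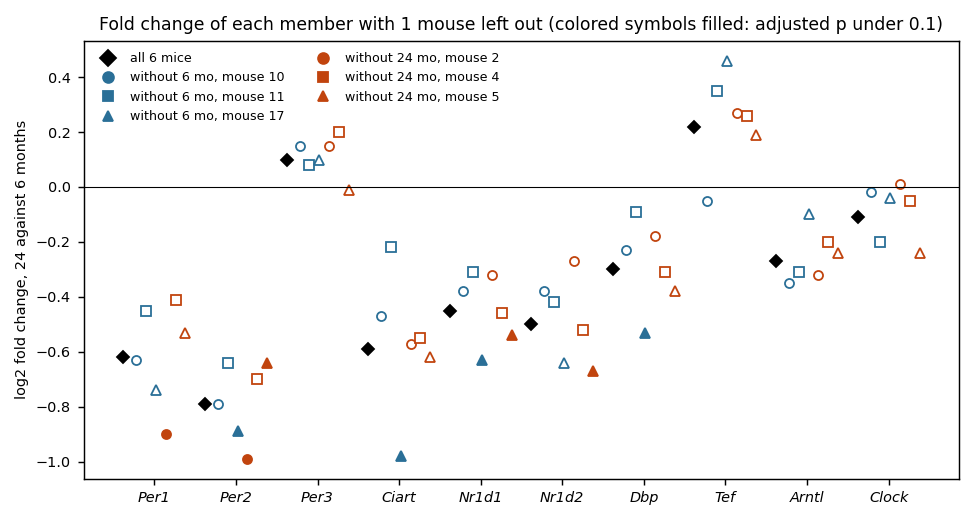
Log2 fold change of each of the 10 clock genes with all 6 mice (black diamonds) and with 1 mouse left out (colored symbols, filled where the adjusted p is under 0.1). Per2 stays between -0.99 and -0.64, Ciart ranges from -0.98 without the young mouse 17 to -0.22 without the young mouse 11, and Tef, Per3 and Clock change sign.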

How the data were processed

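RNA-seq of the cerebral cortex was analysed for 6 male mice, 3 per age. The authors trimmed reads with Trim Galore 0.6.4, mapped them to GRCm38 with STAR 2.7.3a and counted them on exons with featureCounts of Subread 2.0.0. The deposited counts were whole numbers and were used as they are, although the stated options split multimapping reads. The deposited TPM values are the authors' values per exonic length and were matched to the counts by row.

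Counts were fitted with edgeR 4.0.16 (R 4.3.3), with TMM scaling, genes of at least 10 counts over the 6 libraries, the quasi-likelihood test without covariates and Benjamini-Hochberg adjustment over all genes. Alternatives were 2 other edgeR tests, DESeq2 1.42.0, 2 other scalings, 3 filters, limma 3.58.1 on log2(TPM + 1) and each mouse left out. The fits were tested on simulated data. Genes were named by role in the clock, as the 4 largest changes of the other clock genes and all those called, as up to 3 genes of smallest adjusted p in the other lists, as the 5 nearest to Dbp and Arntl, and for overlap with exons of a member. Cry1, Npas2, Plin4 and Fkbp5, and Rorb, Bhlhe41 and Usp2 in the closing section, were chosen after their values were seen. Members and lists were chosen with earlier results of these data known. Gene positions are from GENCODE vM21 and promoters from RefSeq (GRCm38.p6), searched on both strands. The values of 1 other clock gene are not reported here.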

Additional observations from a re-analysis of the deposited data

How the results depend on the processing

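At 10% FDR the likelihood ratio, exact and DESeq2 tests, DESeq2 size factors and no filter each called Per1 and Per2, as did the fit without the old mouse 2. In that order they called 22.8%, 18.8%, 11.2%, 16.8%, 8.17% and 0.585% of all genes tested, in either direction. Library totals called 1 member, and filterByExpr and a minimum of 1 CPM in 3 libraries called 0. They called 13.5%, 7.51% and 0.703% of all genes tested. These last 3 settings called 0 of the other clock genes. At 1% FDR the likelihood ratio test and the exact test called 1 member each, with 5.18% and 3.41% of all genes tested. With 1 mouse left out, 0 to 4 members and 0 to 5 other clock genes were called at 10% FDR, 0 to 0 members at 1% FDR, and the median of the members ran from -0.58 to -0.26. The median was -0.19 with library totals and -0.23 with the CPM minimum. Over all genes, the number called at 10% FDR was 6041, against 3048 with DESeq2, 4014 without a filter, 1538 with filterByExpr and 112 with the CPM minimum. It was 0 without the young mouse 10 or the old mouse 4, 1 without the young mouse 11, 2476 without the young mouse 17, 176 without the old mouse 2 and 7997 without the old mouse 5. Clock had a log2 fold change of 0.08 with library totals, 0.01 with filterByExpr, 0.04 with the CPM minimum, 0.01 without the old mouse 2 and 0.01 on log2(TPM + 1). Per3 was at -0.01 without the old mouse 5 and Tef at -0.05 without the young mouse 10. With 1 mouse left out, Clock ran from -0.24 to 0.01, Per3 from -0.01 to 0.20 and Tef from -0.05 to 0.46. The cause of these changes was not tested. Of 150 values of single members under 15 alternatives, 123 kept direction and call, 15 lost the call, 5 gained it and 7 changed sign. No paired analysis was possible because the ages share no mouse number. Each member had at least 713 counts in each mouse.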

Other observations

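Several clock genes outside the 10 had levels that differed more between mice than between ages. Rorb, a nuclear receptor that binds ROR elements and marks neurons of layer 4, had 280.3, 178.0 and 224.1 CPM in the young mice 10, 11 and 17, and 149.5, 152.8 and 265.7 CPM in the old mice 2, 4 and 5. Bhlhe41 (DEC2), the paralog of Bhlhe40, had 160.1, 135.0 and 101.3 CPM against 101.6, 111.7 and 148.2 CPM, with a log2 fold change of -0.13 (SE 0.18, adjusted p = 0.637, edgeR quasi-likelihood test). Usp2, a deubiquitinase gene under clock control in many tissues, had 158.6, 165.9 and 112.9 CPM against 130.2, 129.9 and 148.0 CPM, and the young mouse 17 was the lowest, as it was for Ciart and Dbp.

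Of the marker genes, Syt1 of neurons was called lower (log2 fold change -0.40, adjusted p = 0.0651, quasi-likelihood test) and Gfap of astrocytes higher (0.69, adjusted p = 0.0738, same test), as 1 of 6 and 1 of 5 markers. Among 5 microglial markers, Tmem119 was higher (0.34, adjusted p = 0.0683, same test) and Csf1r lower (-0.34, adjusted p = 0.0646, same test). The background was 17.3% of genes of at least 1 CPM called lower and 2.43% called higher. With library totals the log2 fold changes were -0.21 for Syt1, 0.89 for Gfap, 0.53 for Tmem119 and -0.15 for Csf1r. Of the markers of endothelial cells (4), choroid plexus (4), red blood cells (3) and meninges (4), 0 were called by the quasi-likelihood, likelihood ratio, exact or DESeq2 test at 10% FDR. Of these, 1, of red blood cells, had an unadjusted p under 0.05, against 31.1% of genes of at least 1 CPM.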
